A study of Mus musculus with 6 samples.

Results

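The members described here are 45 genes of collagens and other extracellular matrix proteins, chosen by symbol from a table of 23016 genes measured in newborn mouse cerebral cortex. Each symbol matched 1 entry. Cortex was dissected at postnatal day 0 from 3 Fezf2 KO pups (Fezf2-/-) and 3 wild type pups (Fezf2+/+), all born to crosses of Fezf2+/- mice, and each brain gave 1 total RNA library. In both genotypes libraries 1 and 2 came from litter m1 and library 3 from litter m2. The sources used here do not give the part of Fezf2 that the allele lacks, the sex of the pups or whether the meninges, the membranes that wrap the brain, were stripped from the cortex.

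The extracellular matrix is the protein and sugar scaffold between cells. Fibrillar collagens and small leucine-rich proteoglycans are made mainly by fibroblasts, which in the brain sit in the meninges and around larger vessels. Laminins, nidogens and type IV collagen form the basement membranes under the pia and around vessels, while the matrix among neurons and glia holds little fibrillar collagen and is built from hyaluronan, chondroitin sulfate proteoglycans of the lectican family (versican, neurocan, brevican, aggrecan), link proteins and tenascins. The members were therefore kept in 6 groups by role: 11 stromal collagens, 9 fibroblast glycoproteins and leucine-rich proteoglycans, 11 basement membrane genes, 6 neural matrix genes, 2 membrane collagens and 6 other secreted matrix genes.

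Values are normalised read counts, in which 1 read is worth 0.812 to 0.936 depending on the library. They are not scaled to gene length, so they compare libraries for 1 gene and not genes with each other. Gene reads ran from 44978380 to 52872577 per library. Fezf2, the gene targeted in the KO, had 1377 to 1989 in the Fezf2 KO libraries and 5030 to 5928 in the wild type libraries, and all 8 cortical neuron markers were detected in every library. Of the 45 members, 44 had 10 or more in 3 or more libraries and entered the limma test among 17557 genes. Lum, which encodes the collagen-binding proteoglycan lumican, did not. The call threshold was a limma p under 0.05 after Benjamini-Hochberg adjustment, which 0.712% of the genes tested reached (0.404% higher and 0.308% lower in Fezf2 KO). Log2 changes are Fezf2 KO over wild type, on log2(value + 1), which understates changes of genes with few reads.

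Of the 44 members tested 1 rose, Matn2, and 0 fell. At an unadjusted limma p under 0.05 there were 6, of which 5 were lower in Fezf2 KO, where 9.03% of all genes tested had such a p 4.37% with a lower and 4.66% with a higher value in Fezf2 KO. By edgeR, a count test on the reads recovered from the values, Matn2 was also the 1 member called (0.689% of all genes were), and DESeq2, which called 2.3% of all genes, added Thbs2 and Col12a1 as lower. Genotypes did not overlap in 6 of the 44 tested members (1 above and 5 below in Fezf2 KO), beside 14.5% of all genes tested (7.6% above and 6.85% below). Lum, which was not tested and had few reads, was also lower in every Fezf2 KO library than in any wild type library. The median log2 change was -0.07 over the members and 0.00 over all genes tested, and 27 of the 44 lay below 0, against 49% of all genes tested. Leaving out wild type 1 turned the members' median to 0.15, with 14 of the 44 below 0. Much of the spread lay within the wild type pups: wild type 1 held the highest value of the 6 libraries in 30 of the 44 tested members, against 13.4% of all genes tested.

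**Figure D1:**
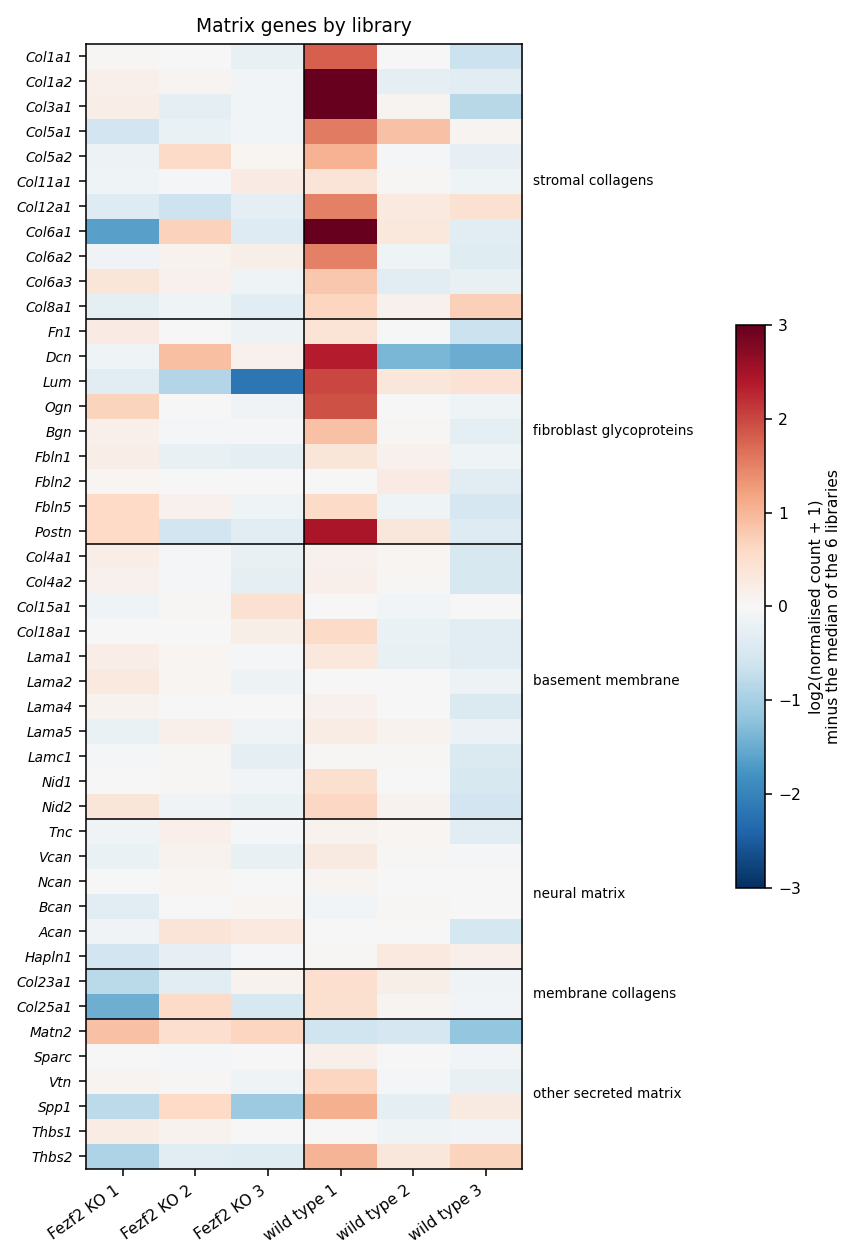
Each row is 1 of the 45 matrix genes and each column 1 library, with the 3 Fezf2 KO libraries left of the 3 wild type libraries; colour gives log2(normalised count + 1) minus the gene's median over the 6 libraries, drawn at the end colour beyond 3. The stromal collagens and several fibroblast glycoproteins are dark in wild type 1, where Col3a1 stood at 1904 against 73.1 to 150 in the other 5 libraries, while the neural matrix rows stay pale.

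The stromal collagens had a summed value of 2509, 2861 and 2656 in Fezf2 KO libraries 1 to 3, against 10660, 2935 and 2306 in wild type libraries 1 to 3. Wild type 1 was thus 4.07 times the mean of wild type 2 and 3, and wild type 2, of the same litter, lay near the Fezf2 KO libraries. Of the 11 stromal collagens, 9 were at least 2-fold higher in wild type 1 than the mean of wild type 2 and 3, a ratio that 1.06% of all genes tested reached. Col3a1, the chain of type III collagen found in soft connective tissue, had 150, 107 and 122 in Fezf2 KO libraries 1 to 3, against 1904, 139 and 73.1 in wild type libraries 1 to 3. Its ratio of 18.0 in wild type 1 over the mean of the other wild type libraries was the 7th largest of the genes tested. Col1a2, the second chain of type I collagen, had 297, 286 and 251 in Fezf2 KO, against 2336, 218 and 211 in wild type, and its partner chain Col1a1 had 555, 537 and 460 against 1874, 539 and 346.

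Type VI collagen forms beaded filaments around cells, and its 3 chains differed in how far wild type 1 stood out. Col6a1 had 27.6, 143 and 67.1 in Fezf2 KO libraries 1 to 3, against 790, 110 and 69.6 in wild type libraries 1 to 3 (log2 -1.49, SE 0.892, limma adjusted p = 0.724). Col6a2 had 333, 382 and 403 in Fezf2 KO, against 1020, 325 and 278 in wild type. Col6a3 had 149, 127 and 106 in Fezf2 KO, against 202, 90.8 and 98.8 in wild type. Wild type 1 was highest for each chain, by 8.80 times the mean of the other wild type libraries for Col6a1, 3.39 times for Col6a2 and 2.13 times for Col6a3. Although Col6a1 and Col6a2 are neighbours in the genome, their ratio ran from 0.0829 in Fezf2 KO 1 to 0.774 in wild type 1. Col5a2, a regulator of fibril width, had 289, 479 and 337 in Fezf2 KO, against 663, 306 and 269 in wild type. Col11a1, a minor fibrillar chain also used in cartilage, was the most even of the group, with 352, 380 and 461 in Fezf2 KO and 507, 394 and 352 in wild type.

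The fibroblast glycoproteins held both kinds of pattern. Dcn, which encodes the collagen-binding proteoglycan decorin, had 56.8, 119 and 68.9 in Fezf2 KO libraries 1 to 3, against 322, 23.6 and 21.5 in wild type libraries 1 to 3. Thus all Fezf2 KO libraries lay above wild type 2 and 3 and below wild type 1. Postn, the matrix protein periostin, had 50.3, 21.6 and 25.6 in Fezf2 KO, against 182, 41.9 and 24.9 in wild type (log2 -0.91, SE 0.663, limma adjusted p = 0.795). Ogn, the proteoglycan osteoglycin, had 20.3, 12.6 and 11.5 in Fezf2 KO, against 49.6, 12.2 and 11.2 in wild type. Wild type 1 was the outlying library for each of these, at 14.3, 5.46 and 4.24 times the mean of wild type 2 and 3. Lum had 5.68, 3.59 and 0.88 in Fezf2 KO, against 32.8, 9.60 and 10.3 in wild type; a count of 0 allows up to 2.44 to 2.81 of these units (3 reads, counting error only), so Fezf2 KO 3 lay under that limit. Fn1, fibronectin, a cell adhesion protein of stroma and vessels, stood out less, with 3526, 3034 and 2691 in Fezf2 KO, against 3968, 2958 and 1914 in wild type (log2 0.12, SE 0.232, limma adjusted p = 0.949). Fbln2, a fibulin of vessel walls and basement membranes, did not follow the pattern, with 1993, 1914 and 1931 in Fezf2 KO, against 1894, 2278 and 1551 in wild type. The remaining 3, Bgn (biglycan), Fbln1 and Fbln5, were 1.27 to 1.99 times higher in wild type 1 than the mean of the other wild type libraries.

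**Figure D2:**
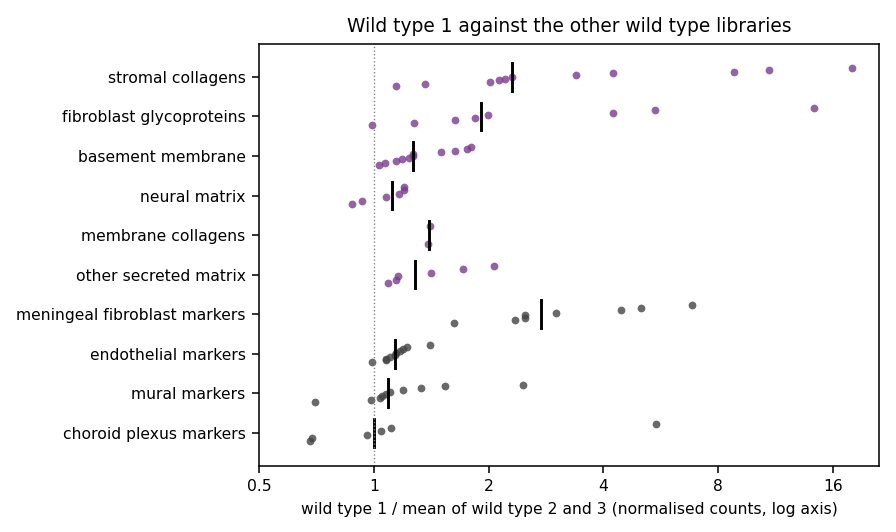
Each point is a tested gene, placed on a log axis by its value in wild type 1 divided by the mean of wild type 2 and wild type 3; black bars are medians, purple points are the matrix genes and grey points are marker genes. The median was 2.31 for the stromal collagens, 1.91 for the fibroblast glycoproteins, 1.26 for the basement membrane and 1.12 for the neural matrix.

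Markers of meningeal fibroblasts moved with these values. All 14 of the list were in the table, all were highest in wild type 1, and 13 were at least 2-fold above the mean of wild type 2 and 3 there. Their summed value was 724 to 807 in Fezf2 KO and 673 to 3917 in wild type, where wild type 1 gave the upper end and wild type 2 had 952. Slc6a13, a GABA and taurine transporter of the meninges, had 4.87, 2.69 and 2.65 in Fezf2 KO, against 361, 2.62 and 3.44 in wild type. Slc22a6, an organic anion transporter, had 0, 0.90 and 0.88 in Fezf2 KO, against 453, 2.62 and 2.58 in wild type. Foxc2 and Aldh1a2, a forkhead factor and the retinoic acid synthesising enzyme of the meninges, were at 235 and 335 in wild type 1 and at most 12.6 and 8.73 elsewhere. Slc22a6 and Slc22a2 were at 0 in 1 Fezf2 KO library each. By limma 0 of the 8 tested members of this list changed with genotype, while edgeR called 0 and DESeq2 called 1, Cyp1b1. Cyp1b1 and Ranbp3l, the 2 with an unadjusted limma p under 0.05, were lower in every Fezf2 KO library than in any wild type library. This held for 6.85% of all genes tested. Their log2 changes were -1.49 and -0.98, and without wild type 1 -0.97 and -0.55 (limma adjusted p = 0.222 and 0.856). In that fit Islr was below 0 too (-0.27), and the other tested members of the list were above 0. The summed values of endothelial, mural, choroid plexus and bone, skin or muscle lists were not highest in wild type 1. They were 12053, 6707, 292 and 648 there and up to 12875, 7000, 9913 and 859 in other libraries. In these lists 0, 1, 2 and 1 genes were at least 2-fold above the mean of wild type 2 and 3 in wild type 1. Among them were Anpep (mural, 2.46 times) and, of the choroid plexus list, Aqp1 (5.50 times) and Kcnj13 (7.51 times, too low to be tested). The sum of choroid plexus markers stood apart in Fezf2 KO 1, at 9913 against 302 to 317 in the other Fezf2 KO libraries and 199 to 292 in wild type. Ttr alone gave 8950 of it, and had 65.6 and 68.0 in Fezf2 KO 2 and 3 and 9.45 to 15.7 in wild type. Folr1, Clic6, Aqp1 and Otx2 also stood apart in Fezf2 KO 1, while Kl, Kcnj13 and Sostdc1 did not. Markers of microglia and macrophages, and striatal markers, were highest in wild type 1 as well, in 9 of 10 genes each. Their sums were 4622 and 16097 there, against 3681 to 3874 and 12443 to 14114 in the other wild type libraries. In the microglia and macrophage list the median ratio of wild type 1 to the mean of wild type 2 and 3 was 1.18. In that list 3 genes were at least 2-fold higher there: Mrc1 (3.01 times), Cd163 (3.16 times) and Pf4 (12.8 times). Cd163 and Pf4 were too low to enter the limma test. In bulk tissue more cells of a type and more RNA per cell cannot be told apart, and the part of the meningeal genes in the collagen values was not tested.

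**Figure D3:**
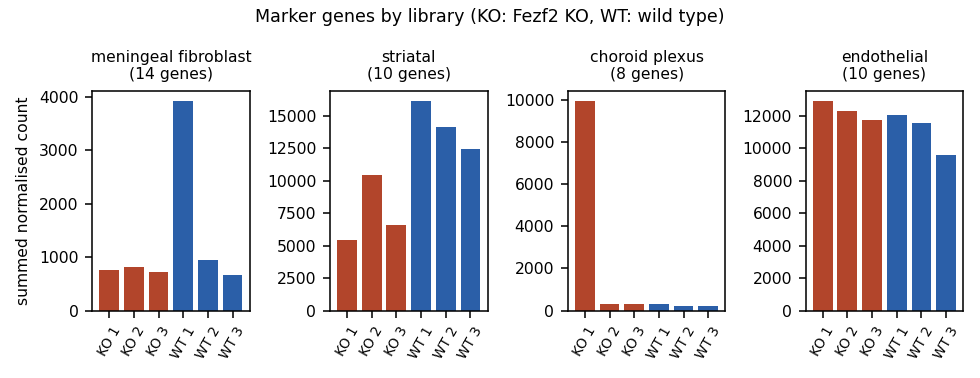
Bars give the summed normalised count of a marker list in each library, starting at 0, with Fezf2 KO libraries (KO) left of wild type libraries (WT). Meningeal fibroblast markers stand out in wild type 1 (3917), choroid plexus markers in Fezf2 KO 1 (9913), striatal markers are lower in each Fezf2 KO library (5434 to 10439, against 12443 to 16097 in wild type), and endothelial markers are lowest in wild type 3 (9602).

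The genotype difference of the stromal collagens turned on wild type 1. With all libraries 10 of the 11 had a log2 change below 0, with a median of -0.76, and without wild type 1 there were 4 below 0 and the median was 0.25, where the median over all genes tested was 0.00 both times. Col1a1 had a log2 change of -0.45 (SE 0.517, limma adjusted p = 0.904) with all libraries and 0.25 (SE 0.190, limma adjusted p = 0.912) without wild type 1. Col3a1 stood at -1.10 (SE 1.01) and 0.31 (SE 0.285), and Col1a2 at -0.78 (SE 0.808) and 0.37 (SE 0.128), and neither passed in either fit. The count tools, with all libraries, put these log2 changes further below 0: edgeR gave -0.83 for Col1a1, -2.48 for Col3a1 and -1.73 for Col1a2, and DESeq2 gave -0.84, -2.49 and -1.74. Neither tool called Col1a1, and edgeR called neither of the others. DESeq2 gave no adjusted p for Col1a2, Col3a1 or Dcn. Dcn has no settled direction. Its mean was 81.4 in Fezf2 KO and 122 in wild type, while limma, on the log scale, gave a log2 change of 0.48 (SE 0.919) with all libraries and 1.74 (SE 0.320, limma adjusted p = 0.0939) without wild type 1. The sign turned to -0.59 in both edgeR and DESeq2 and to -0.099 in litter m1 alone. Of the 44 members, 10 had an unadjusted p under 0.05 in the fit without wild type 1, where 7.46% of all genes had one, and 1, Matn2, was called, where 0.541% of all genes were.

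**Figure D4:**
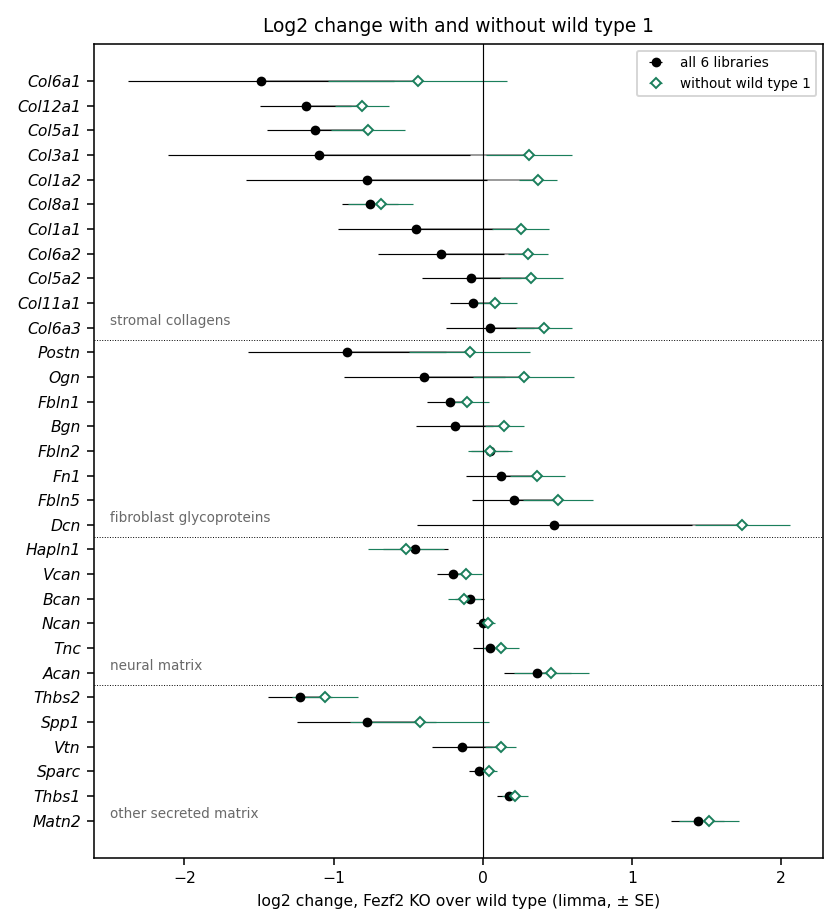
Points give the log2 change of Fezf2 KO over wild type from limma (bars: SE), filled with all 6 libraries and open without wild type 1, for the tested genes of 4 groups. Of the 11 stromal collagens 6 cross 0 when wild type 1 is left out (Col1a1 is at -0.45 with all libraries and at 0.25 without it), whereas Col12a1, Col8a1, Col5a1 and Thbs2 stay below 0 and Matn2 stays above.

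Among the stromal collagens 3 kept a lower value in every Fezf2 KO library than in any wild type library, beside 6.85% of all genes tested, and none passed the test. Col12a1, a fibril-associated collagen, had 67.4, 57.5 and 72.4 in Fezf2 KO libraries 1 to 3, against 255, 109 and 122 in wild type libraries 1 to 3 (log2 -1.19, SE 0.302, limma adjusted p = 0.187). Col8a1, a short-chain collagen of vessel walls, had 63.3, 71.0 and 60.9 in Fezf2 KO, against 123, 85.5 and 129 in wild type (log2 -0.76, SE 0.188, limma adjusted p = 0.171). Col5a1, the partner chain of Col5a2, had 225, 294 and 316 in Fezf2 KO, against 986, 619 and 357 in wild type (log2 -1.13, SE 0.323, limma adjusted p = 0.262). For Col8a1 the highest library was wild type 3 and not wild type 1, while for Col5a1 wild type 3 lay near the Fezf2 KO libraries. Without wild type 1 their log2 changes were -0.81 (SE 0.180), -0.69 (SE 0.218) and -0.77 (SE 0.247) for Col12a1, Col8a1 and Col5a1. DESeq2 called Col12a1 (adjusted p = 0.0109), and not Col8a1 (0.0803) or Col5a1 (0.154).

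Thrombospondins are large secreted glycoproteins that bind matrix and, from astrocytes, promote synapse formation. Thbs2 had 85.3, 128 and 126 in Fezf2 KO libraries 1 to 3, against 330, 209 and 260 in wild type libraries 1 to 3, so the genotypes did not overlap. Its log2 change of -1.22 (SE 0.215) had a limma adjusted p of 0.0549, just outside the threshold, with an edgeR adjusted p of 0.06 and a DESeq2 adjusted p of 4.32e-05. With litter as a block the limma adjusted p was 0.0848, and within litters the log2 difference was -1.32 in m1 and -1.04 in m2. Leaving out Fezf2 KO 1 gave a log2 change of -1.03 (limma adjusted p = 0.0953). Leaving out wild type 1 gave -1.06 (limma adjusted p = 0.143). Its paralogue Thbs1 lay the other way, with 2705, 2459 and 2277 in Fezf2 KO, against 2324, 2089 and 2170 in wild type (log2 0.17, SE 0.077, limma adjusted p = 0.56). Striatal markers, which are markers of tissue under the cortex, were lower in each Fezf2 KO library than in each wild type library, with a summed value of 5434, 10439 and 6601 in Fezf2 KO, against 16097, 14114 and 12443 in wild type. Of that list of 10 genes limma called 1 lower (Ppp1r1b) and 0 higher, while 9 reached an unadjusted p under 0.05; its part in the lower values of Thbs2, Col12a1, Col8a1 and Col5a1 was not tested. The summed value of 9 radial glia and astrocyte markers was also lower in each Fezf2 KO library, at 20287, 23137 and 21690, against 24053, 23279 and 23559 in wild type. Log2 changes of Fabp7 (0.02), Hes1 (0.16) and Hes5 (0.03) lay above 0. Those of the other genes of this list lay below 0, and the median was -0.15. Of these 9 genes limma, edgeR and DESeq2 each called 0. Only Gja1 had an unadjusted limma p under 0.05 (log2 -0.68), and only Gja1 had no overlap between genotypes. Gja1 had 541, 812 and 729 in Fezf2 KO, against 1719, 926 and 835 in wild type. Without wild type 1 its log2 change was -0.36 (limma adjusted p = 0.748). The part of these 9 genes was not tested either, nor was that of the meningeal fibroblast markers.

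The 250 bases before the RefSeq start (GRCm38.p6) are shown for 4 genes of these results, chosen after their values were seen: Thbs2, Col8a1 and Col5a1, whose genotypes did not overlap, and Col3a1, with the largest ratio in wild type 1. Their windows are chr17:14694263-14694512, minus strand, for Thbs2, chr16:57754738-57754987, minus strand, for Col8a1, chr2:27886175-27886424, plus strand, for Col5a1, and chr1:45311288-45311537, plus strand, for Col3a1. Each reads 5′ to 3′ on the strand of the gene, and capitals mark the TATA box letters TATAAA, the CCAAT box letters CCAAT and the GC box letters GGGCGG, on either strand.
Thbs2: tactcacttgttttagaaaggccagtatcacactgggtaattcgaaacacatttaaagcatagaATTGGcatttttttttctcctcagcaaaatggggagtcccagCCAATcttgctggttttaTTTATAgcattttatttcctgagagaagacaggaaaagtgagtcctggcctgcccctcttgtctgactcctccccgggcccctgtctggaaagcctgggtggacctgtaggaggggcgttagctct
Col8a1: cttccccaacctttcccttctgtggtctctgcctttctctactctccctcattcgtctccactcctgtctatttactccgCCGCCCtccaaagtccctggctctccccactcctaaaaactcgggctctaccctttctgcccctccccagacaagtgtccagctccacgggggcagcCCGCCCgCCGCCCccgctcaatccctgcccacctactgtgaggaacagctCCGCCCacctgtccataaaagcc
Col5a1: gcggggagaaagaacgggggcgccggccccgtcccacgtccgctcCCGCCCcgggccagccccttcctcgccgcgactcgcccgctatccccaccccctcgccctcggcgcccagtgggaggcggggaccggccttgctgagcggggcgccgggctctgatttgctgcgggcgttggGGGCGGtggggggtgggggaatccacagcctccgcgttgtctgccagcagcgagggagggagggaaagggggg
Col3a1: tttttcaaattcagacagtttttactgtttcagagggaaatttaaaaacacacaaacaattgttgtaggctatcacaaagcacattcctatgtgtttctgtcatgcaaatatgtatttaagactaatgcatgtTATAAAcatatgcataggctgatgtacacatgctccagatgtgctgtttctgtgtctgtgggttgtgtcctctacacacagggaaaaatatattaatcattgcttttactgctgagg
The Thbs2 window held TATAAA on the reverse strand 126 bases before the start and CCAAT on both strands, and the Col3a1 window held TATAAA 117 bases before the start. The Col8a1 and Col5a1 windows held GGGCGG only, 4 and 2 times. RefSeq windows matched 33 of the 45 members by symbol, of which 7 held TATAAA, 13 held CCAAT and 19 held GGGCGG. Over 27025 genes with a window, 13.0% held TATAAA, 34.5% held CCAAT and 32.9% held GGGCGG. The letters are a description of these windows, and the data bear on transcript levels and not on binding there.

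**Figure D5:**
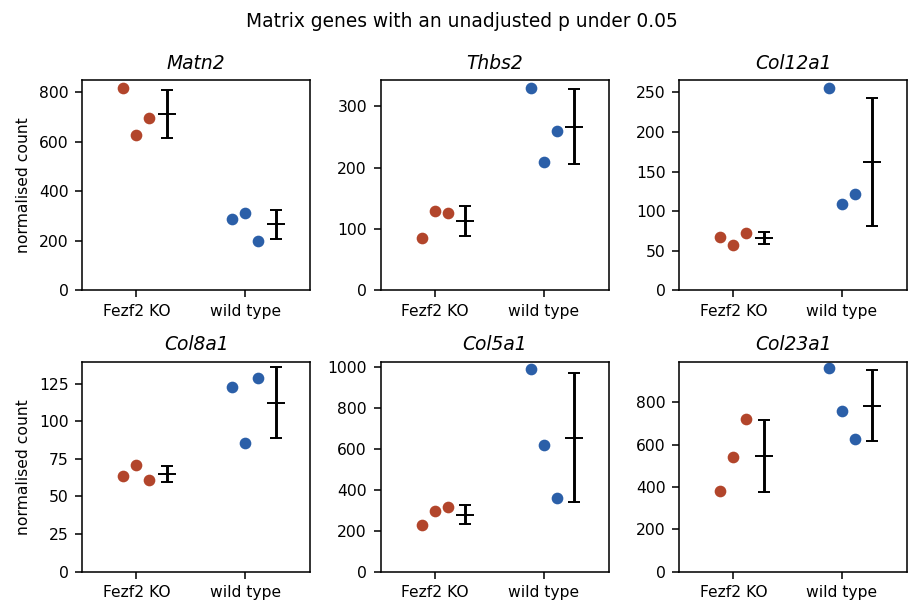
Points are the normalised counts of single libraries for the 6 members with an unadjusted limma p under 0.05, Fezf2 KO left of wild type, with mean ± SD (n = 3) beside them and axes from 0. Matn2 is higher in all 3 Fezf2 KO libraries (629 to 818, against 198 to 311 in wild type), Thbs2, Col12a1, Col8a1 and Col5a1 are lower in all 3, and Col23a1 overlaps between genotypes.

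Matn2 encodes matrilin-2, an adaptor protein that links collagen, fibronectin and laminin networks and is known from basement membranes and peripheral nerve. It had 818, 629 and 695 in Fezf2 KO libraries 1 to 3, against 290, 311 and 198 in wild type libraries 1 to 3. Every Fezf2 KO library lay above every wild type library, with 714 ± 96.3 against 266 ± 60.2 (SD, n = 3 each), 2.68 times as high. The log2 change was 1.44 (SE 0.179, limma adjusted p = 0.0111), and edgeR gave an adjusted p of 0.0141. Within litters the log2 difference was 1.25 in m1 and 1.81 in m2. Leaving out 1 library gave log2 changes from 1.24 to 1.56, and the limma adjusted p was 0.0587 without Fezf2 KO 3. Without Fezf2 KO 1, the library high in choroid plexus markers, the log2 change was 1.34 (limma adjusted p = 0.0348), and without wild type 1 it was 1.51 (limma adjusted p = 0.0288). Wild type 1, the library rich in stromal collagen, stood between the other wild type libraries for Matn2. An opposite-strand gene, 9430069I07Rik, shares up to 70 exon bases with Matn2 in the GENCODE M21 annotation, and it had 18.7, 16.2 and 17.7 in Fezf2 KO, against 8.42, 6.98 and 3.44 in wild type. No source used here gives the strand setting, and reads of that overlap cannot be assigned.

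The other 3 secreted matrix genes did not separate the genotypes. Sparc, a collagen-binding glycoprotein of vessels and glia, was nearly level, with 7462, 7190 and 7464 in Fezf2 KO, against 8264, 7317 and 7013 in wild type (log2 -0.03, SE 0.064, limma adjusted p = 0.959). Vtn, vitronectin, which brain pericytes express, had 976, 950 and 851 in Fezf2 KO, against 1462, 908 and 796 in wild type. Spp1, osteopontin, had 81.2, 211 and 65.4 in Fezf2 KO, against 294, 116 and 168 in wild type, with Fezf2 KO 2 inside the wild type range and a log2 change of -0.78 (SE 0.464, limma adjusted p = 0.721).

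The basement membrane genes differed little with genotype, with log2 changes from -0.10 to 0.15, a median of 0.04, and 0 of 11 called or under an unadjusted p of 0.05 by limma (0 called by edgeR and 0 by DESeq2). Leaving out wild type 1 put their median at 0.17, with 1 of 11 below 0 and 2, Col18a1 and Lama1, at an unadjusted limma p under 0.05 (0.0121 and 0.0336, neither called). Col4a1 and Col4a2, the ubiquitous type IV collagen chains, ran closely together. Col4a1 had 9346, 7728 and 6886 in Fezf2 KO libraries 1 to 3, against 8831, 8479 and 5809 in wild type libraries 1 to 3 (log2 0.06, SE 0.166, limma adjusted p = 0.965). Col4a2 had 7427, 6610 and 5570 in Fezf2 KO, against 7511, 6995 and 4872 in wild type. Their ratio stayed between 1.17 and 1.26 in all 6 libraries, and in GENCODE M21 exons of these opposite-strand neighbours share up to 22 bases. Wild type 3 was the lowest of the 6 libraries in 9 of the 11 genes, against 20.1% of all genes tested. Endothelial and mural markers were also lowest there, at 9602 and 5114, against 11566 to 12053 and 6406 to 6707 in the other wild type libraries and 11745 to 12875 and 6321 to 7000 in Fezf2 KO, and their part was not tested.

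Most laminins and nidogens were lowest in wild type 3 too. Lamc1, the gamma chain of most laminin trimers, had 2900, 3009 and 2437 in Fezf2 KO, against 3007, 3050 and 2202 in wild type. Lama4, the alpha chain of vessel laminin, had 1042, 953 and 964 in Fezf2 KO, against 1065, 970 and 714 in wild type. Nid2, a nidogen that bridges laminin and type IV collagen, had 881, 638 and 590 in Fezf2 KO, against 1046, 729 and 460 in wild type. All 3 overlapped between genotypes. Col15a1, a collagen proteoglycan of basement membrane zones, had 460, 507 and 685 in Fezf2 KO, against 501, 474 and 497 in wild type (log2 0.15, SE 0.142, limma adjusted p = 0.878), so its spread lay in Fezf2 KO 3. Col18a1, the precursor of endostatin, was nearer to the stromal pattern, with 895, 907 and 1012 in Fezf2 KO, against 1351, 785 and 714 in wild type, and Lama1, the laminin chain of the pial basement membrane, had 310, 278 and 261 against 336, 232 and 215. Lama2, Lama5 and Nid1 had log2 changes between -0.10 and 0.12. Nid2 shares up to 437 exon bases with the opposite-strand gene Rtraf and Fn1 up to 183 with Apol7d in GENCODE M21, so their reads too are uncertain there.

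Of the neural matrix genes Ncan, the one with the highest values, varied least between libraries. Ncan, neurocan, a secreted proteoglycan of developing neurons and glia, had 25520, 26463 and 25275 in Fezf2 KO libraries 1 to 3, against 27020, 25086 and 25195 in wild type libraries 1 to 3. Its log2 change was 0.00 (SE 0.043, limma adjusted p = 0.999), and wild type 1 was 1.08 times the mean of the other wild type libraries. Bcan, brevican, which becomes the main lectican of the adult brain, had 6696, 8333 and 8766 in Fezf2 KO, against 7989, 8675 and 8484 in wild type, with the lowest value in Fezf2 KO 1. Vcan, versican, had 2007, 2486 and 1979 in Fezf2 KO, against 2773, 2369 and 2270 in wild type (log2 -0.20, SE 0.108, limma adjusted p = 0.68). Tnc, tenascin-C, a glycoprotein of radial glia and astrocyte precursors, had 7383, 8889 and 7671 in Fezf2 KO, against 8563, 8292 and 6455 in wild type. Hapln1, the link protein that fastens lecticans to hyaluronan, was low, with 20.3, 26.0 and 30.0 in Fezf2 KO, against 31.8, 38.4 and 34.4 in wild type. Its genotypes did not overlap, but the log2 change of -0.45 (SE 0.217) had a limma adjusted p of 0.605. Acan, aggrecan of perineuronal nets and cartilage, was low as well, at 46.3 to 65.6 in Fezf2 KO and 34.4 to 50.5 in wild type. Of the 6 genes 0 were called by limma or had an unadjusted p under 0.05, with 0 called by edgeR and 0 by DESeq2, and the median log2 change was -0.04.

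The membrane collagens span the cell surface and are shed from it, and Col25a1 is known from neurons. Col23a1 had 383, 540 and 722 in Fezf2 KO libraries 1 to 3, against 964, 761 and 629 in wild type libraries 1 to 3 (log2 -0.54, SE 0.233, limma adjusted p = 0.545), with Fezf2 KO 3 above wild type 3. Col25a1 had 99.1, 409 and 197 in Fezf2 KO, against 386, 292 and 259 in wild type (log2 -0.62, SE 0.437, limma adjusted p = 0.779). Here Fezf2 KO 2 was the highest of all 6 libraries and Fezf2 KO 1 the lowest, as Fezf2 KO 2 was the highest and Fezf2 KO 1 the lowest of the Fezf2 KO libraries in striatal markers, whose part was not tested. The entry linc-Col23a1-AS, named as antisense to Col23a1, had 10.6 to 12.4 in Fezf2 KO and 14.0 to 15.5 in wild type, and without the strand their reads cannot be told apart.

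Compared per kilobase of merged exons (GENCODE M21, GRCm38, which may differ from the gene models counted), Ncan had the highest level of the members, at 3577 per kilobase in Fezf2 KO and 3579 in wild type. Sparc followed with 2710 and 2769, Bcan with 2526 and 2670, and Col4a1 with 1206 and 1164 per kilobase in Fezf2 KO and wild type. Tnc, with 1027 and 1000, and Col4a2, with 1013 and 1001, came next, in opposite order in Fezf2 KO and wild type. Of the stromal collagens Col1a1 had 93.5, 90.6 and 77.6 per kilobase in Fezf2 KO, against 316, 90.9 and 58.4 in wild type. Col3a1 had 27.0, 19.2 and 21.9 per kilobase in Fezf2 KO, against 342, 25.0 and 13.1 in wild type, so in both the high wild type level was that of wild type 1. On this scale the levels of the neural lecticans Ncan and Bcan were above those of every stromal collagen in both genotypes.

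Beyond the members, 139 other matrix genes of a listed set were in the table as 140 entries, 126 of them tested. Of these 4 rose and 1 fell, beside the 0.712% of all genes called, and the median log2 change was -0.02. Loxl2, a lysyl oxidase that crosslinks collagen, rose, with 723, 686 and 718 in Fezf2 KO libraries 1 to 3, against 396, 296 and 351 in wild type libraries 1 to 3 (log2 1.04, SE 0.114, limma adjusted p = 0.00594). Leaving out 1 library kept its limma adjusted p between 0.00838 and 0.0437. Adamts3, a procollagen-processing protease that also takes part in reelin cleavage, rose, with 3560, 3536 and 3954 in Fezf2 KO, against 2428, 2359 and 2760 in wild type (log2 0.55, SE 0.076, limma adjusted p = 0.0183). Tll2, a tolloid-like protease, rose, with 238, 183 and 136 in Fezf2 KO, against 83.3, 71.6 and 56.7 in wild type (log2 1.36, SE 0.229, limma adjusted p = 0.0445). For Tll2 edgeR gave an adjusted p of 0.0507, and limma gave 0.0501 with no filter on low values and 0.052 with TMM scaling. In both genotypes of Tll2 library 1 was highest and library 3 lowest, and the groups did not overlap.

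Has3, a hyaluronan synthase, rose, with 1913, 1782 and 1879 in Fezf2 KO, against 1425, 1399 and 1293 in wild type (log2 0.44, SE 0.065, limma adjusted p = 0.0267). Timp3, a matrix-bound inhibitor of metalloproteases, fell, with 1437, 1456 and 1368 in Fezf2 KO, against 1788, 2011 and 2039 in wild type (log2 -0.45, SE 0.070, limma adjusted p = 0.0338). These 2 were steady within each genotype and did not overlap. Leaving out 1 library gave limma adjusted p from 0.0509 to 0.127 for Has3, where none of the 6 fits passed, and from 0.0328 to 0.148 for Timp3, which passed only without wild type 1. Adamts3 had 0.0828 in the fit that left out Fezf2 KO 3, 0.0699 in the one that left out wild type 1 and 0.0746 in the one that left out wild type 2. Tll2 passed only without Fezf2 KO 3 (0.0469; 0.0641 to 0.154 otherwise).

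By limma no other gene of the set passed. DESeq2 called 5 more, Smoc1 as higher, Eln, Mmp17 and Cd44 as lower, and Tnr, a tenascin of the neural matrix named here after its values were seen, as higher, while edgeR called 3 higher and 1 lower in all. The smallest limma p-values were those of Col27a1 (log2 -0.47) and Col9a3 (0.18) among other collagens, Lama3 (-0.69) and Agrn (0.08) among laminins and basement membrane genes, Smoc1 (0.32) and Eln (-0.25) among glycoproteins, and Itga10 (-0.64) and Itgb8 (0.24) among receptors. Mmp17 (-0.27) among proteases and Cd44 (-0.53), a hyaluronan receptor, among neural matrix genes did not pass limma either. Among the collagen-processing genes Lox, the founding lysyl oxidase, had 17.9, 13.5 and 23.0 in Fezf2 KO, against 366, 15.7 and 12.9 in wild type. Lox thus followed the stromal collagens in wild type 1, whereas Loxl2 had its 3 wild type values between 296 and 396. Fmod, the proteoglycan fibromodulin, also had its highest value in wild type 1, with 56.8, 31.4 and 53.9 in Fezf2 KO and 410, 80.3 and 75.6 in wild type; both were chosen after their values were seen.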

How the data were processed

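Total RNA of 6 cortices was measured by RNA sequencing (TruSeq libraries, per the labels). Tools listed in the submitters' processing notes are DESeq, STAR and Bowtie, without versions, and the build is mm9; the counting, its annotation and strand setting are not given in the sources used here. The deposited table holds a normalised signal per gene. Its values (100%) were whole multiples of a step that differs by library, within 0.006, as read counts divided by size factors are, and dividing by the step gave back whole reads.

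The main fit was limma 3.58.1 (R 4.3.3) on log2(value + 1), variance trend, genotype as the single term, genes with at least 10 in at least 3 libraries. A quasi-likelihood fit in edgeR 4.0.16 with TMM factors on the recovered reads called 121 genes; DESeq2 1.42.0 was another alternative. The limma and edgeR fits were tested on simulated data, and DESeq2 was not. Members, lists and alternatives were chosen with earlier results of these data known. All 45 members were accounted for; full statistics went to members called, those with an unadjusted p under 0.05, and those with the highest level or largest change in each group. Other matrix genes were named if called, plus up to 2 per sublist by smallest p. Each pup is 1 replicate. Litter pairs the libraries, per the labels; deviations from the genotype means correlated between -0.137 and 0.223 within litters and -0.162 and -0.038 across them, over 17557 genes, which are not independent replicates. Floors cover counting error only. Gene models came from GENCODE M21 and promoter windows from RefSeq, both GRCm38, which served for names, lengths and sequences and not for the mm9 values.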

Additional observations from a re-analysis of the deposited data

How the results depend on the processing

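Matn2 kept a log2 change above 0 under all alternatives (1.24 to 1.56) and passed all but litter m1 alone (1.25, limma adjusted p = 0.0877) and without Fezf2 KO 3 (1.45, 0.0587). Thbs2 (-1.24) and Col12a1 (-1.30) passed in DESeq2 alone. With litter as a replicate block, limma called 74 genes higher and 64 lower, and 1 member higher and 0 lower; it changed no other call of a member. The genes called numbered 242 higher and 161 lower by DESeq2, 12 and 17 in litter m1 alone, and 128 and 94 at an adjusted p under 0.1. Members called numbered 1 higher and 2 lower by DESeq2, 0 and 0 in litter m1 alone, and 1 and 1 at an adjusted p under 0.1 (Thbs2 being lower). Other matrix genes called numbered 6 higher and 4 lower by DESeq2, and 0 and 0 in litter m1 alone. Leaving out 1 library gave 21 to 55 higher and 37 to 73 lower genes, 0 to 1 higher and 0 to 0 lower members, and 1 to 2 higher and 0 to 1 lower other matrix genes; fewer libraries alone can lower such counts. The median log2 change of the stromal collagens ranged from -0.96 to 0.25 across these fits, above 0 only without wild type 1. Signs turned for members that were not called: in litter m1 alone Col4a1 was at -0.026, Col15a1 at -0.012 and Fn1 at -0.067. Leaving out 1 library gave -0.13 to 0.17 for Col4a1 (-0.055 without Fezf2 KO 1), -0.022 to 0.27 for Col15a1, -0.16 to 0.37 for Fn1, -0.020 to 0.034 for Ncan, -0.077 to 0.041 for Sparc and -0.96 to 0.25 for Col1a1. The cause was not tested. Members with few reads, such as Lum, Hapln1 and Ogn, are limited by depth.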
